A study of Schmidtea mediterranea with 48 samples.

Results

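The 100 transcripts described here were chosen among the 26563 transcripts of a planarian RNA sequencing study. They are transcripts whose level changed little after wounding in control animals and was lower after RNAi of follistatin (fst) in the first hours. They were chosen by their levels in counts per 1000000 (CPM), the count of a transcript scaled by the total of its library and averaged over the 3 libraries of a group. A transcript was wound-stable when the log2 ratio of its control level after amputation to that at 0 hours post amputation (hpa), averaged over both control series, stayed within 0.6 of 0 at 6, 24 and 48 hpa. It also had to reach 2 CPM in the fst experiment's controls at 0 hpa. These conditions left 11175 transcripts. Of these, 445 had a log2 ratio of fst RNAi to control that was below 0 at both 0 and 6 hpa and averaged at most -0.3, with 0.5 CPM added to each level. The 100 lowest by that average are the members.

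All animals were Schmidtea mediterranea of the asexual strain CIW4, and all were fed double-stranded RNA before amputation. In the fst experiment they had 6 feedings over 3 weeks with double-stranded RNA of fst or, in the controls, of unc-22, a gene of Caenorhabditis elegans. In the myoD experiment the labels give 10 feedings over 5 weeks with myoD or unc-22 double-stranded RNA, whereas the series text gives 8 feedings. Wound faces of tail fragments were collected at 0, 6, 24 and 48 hpa, with 5 wounds and poly(A) RNA per replicate, giving 16 groups of 3 libraries and 48 libraries in all. No source says whether replicates are separate sets of animals. Each p-value below therefore reflects only how these libraries scatter, and that scatter may be technical.

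Follistatin is a secreted protein known for binding Activin-family ligands and keeping them from their receptors. In planarians, fst is known as a wound-induced gene that is needed for regeneration of missing tissue, acting against Activin signals. MyoD is a muscle transcription factor, and in planarians it is known for its part in forming the longitudinal fibres of the body wall muscle. Planarian muscle is also known as a source of the signals that give position along the body axes. The deposited identifiers come from an assembly of transcripts and are not paired with gene names in the sources used here. The members therefore carry no name or role, the expected cell type and pathway lists could not be matched, and the level of fst itself was not read. In bulk wound tissue, fewer cells of a type and less RNA per cell cannot be told apart.

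Total counts per library ran from 7169717 to 22065480, and the controls and fst RNAi libraries at 48 hpa were among the shallowest, at 7169717 to 10545948. The label of replicate 1 of fst RNAi at 48 hpa remarks on human contamination. The transcript listed first in the deposited counts took 4.19% of the counts of this library, against 6.02% to 11.6% in the other 47 libraries. In the fst experiment, 5 transcripts were above 1 CPM in each of the 9 libraries of fst RNAi at 24 hpa and of both groups at 48 hpa, and under 0.5 CPM in each of the other 15. None of the 5 is a member. The fst comparison at 24 hpa crosses this division of the libraries, so the division and the RNAi cannot be told apart there. The 48 hpa comparison lies on one side of it.

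The values that chose the members are given first, as a description. The log2 ratio of fst RNAi to control had a median over the 100 members of -0.53 at 0 hpa, with a range of -1.10 to -0.26. At 6 hpa the median was -0.61 and the range -1.26 to -0.25. The medians over all 11175 wound-stable transcripts were -0.01 at 0 hpa and 0.00 at 6 hpa. The libraries of fst RNAi were all below all controls for 94 members at 0 hpa and for 86 at 6 hpa, beside 12.6% and 9.13% of all transcripts tested. In edgeR's quasi-likelihood test, 19 members at 0 hpa and 40 at 6 hpa were lower at an adjusted p under 0.05, beside 0.258% and 0.561% of the 17815 transcripts tested, and 15 were lower at both times. No member was higher at either time, beside 0.387% and 0.421% of all transcripts. The calls at 0 and 6 hpa are of the same values that chose the members, so nothing is read from them. The authors' deposited tables list 15 members as lower at 0 hpa and 33 at 6 hpa at their adjusted p under 0.05, beside 0.0901% and 0.288% of all transcripts with such a p in those tables.

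The lowest member by the early average was dd_Smed_v4_2169_0_1. Its level was 84.2, 83.3 and 88.1 CPM in the controls and 38.5, 45.4 and 34.8 CPM in the fst RNAi libraries at 0 hpa, and 86.4, 67.5 and 82.8 CPM in the controls and 28.7, 31.9 and 37.4 CPM in the fst RNAi libraries at 6 hpa. Later it was 61.9, 72.4 and 77.9 CPM in the controls and 77.1, 36.3 and 35.8 CPM in the fst RNAi libraries at 24 hpa, and 46.6, 49.4 and 51.6 CPM in the controls and 14.4, 20.8 and 41.7 CPM in the fst RNAi libraries at 48 hpa. The groups did not overlap at 0, 6 and 48 hpa, whereas at 24 hpa the first fst RNAi library stood at the level of the highest control and the other 2 were below all controls. The next member, dd_Smed_v4_750_0_1, had 197, 174 and 188 CPM in the controls and 82.7, 102 and 79.4 CPM in the fst RNAi libraries at 0 hpa, and 192, 128 and 173 CPM in the controls and 63.2, 80.2 and 81.4 CPM in the fst RNAi libraries at 6 hpa. It then had 145, 150.2 and 164 CPM in the controls and 175, 104 and 85.5 CPM in the fst RNAi libraries at 24 hpa, and 104, 119 and 132 CPM in the controls and 83.7, 56.9 and 103 CPM in the fst RNAi libraries at 48 hpa. It showed the same arrangement as dd_Smed_v4_2169_0_1, with replicate 1 of fst RNAi at 24 hpa above all controls of that time and the groups apart at the other 3 times. For neither transcript did the later comparisons pass the test, with fitted log2 fold changes at 24 hpa of -0.55 (SE 0.28, edgeR adjusted p = 0.569) and -0.36 (SE 0.23, edgeR adjusted p = 0.71), and at 48 hpa of -0.82 (SE 0.30, edgeR adjusted p = 0.103) and -0.42 (SE 0.24, edgeR adjusted p = 0.317). Without replicate 1 of fst RNAi at 24 hpa the value of dd_Smed_v4_2169_0_1 at that time was -1.02 with an edgeR adjusted p of 0.0483. At 48 hpa its edgeR adjusted p was 0.00578 without replicate 3 of fst RNAi, and DESeq2 gave an adjusted p of 0.024. It stayed without a call under 11 of 12 alternatives at 24 hpa and 9 of 11 at 48 hpa. Over all alternatives its log2 fold change ran from -1.02 to -0.35 at 24 hpa and from -1.32 to -0.59 at 48 hpa.

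At the other end of the list, the last member inside the limit was dd_Smed_v4_1088_0_1, with an early average of -0.47. Its level was 506, 575 and 501 CPM in the controls and 435, 465 and 356 CPM in the fst RNAi libraries at 0 hpa, and 502, 431 and 457 CPM in the controls and 308, 313 and 290.4 CPM in the fst RNAi libraries at 6 hpa. At the later times it was 340.1, 349.5 and 329 CPM in the controls and 338, 416 and 216 CPM in the fst RNAi libraries at 24 hpa, and 283, 321 and 393 CPM in the controls and 283, 305 and 287 CPM in the fst RNAi libraries at 48 hpa. At the first pair of times its groups were apart, and afterwards they overlapped. The first transcript outside the limit, dd_Smed_v4_19281_0_1, also averaged -0.47 when rounded. It had 15.1, 13.6 and 12.9 CPM in the controls and 7.64, 7.42 and 7.39 CPM in the fst RNAi libraries at 0 hpa, and 11.5, 7.13 and 6.31 CPM in the controls and 6.24, 8.09 and 9.06 CPM in the fst RNAi libraries at 6 hpa. It had 8.00, 7.54 and 8.68 CPM in the controls and 12.2, 9.5 and 7.74 CPM in the fst RNAi libraries at 24 hpa, and 11.9, 9.54 and 5.44 CPM in the controls and 5.76, 4.03 and 4.98 CPM in the fst RNAi libraries at 48 hpa. Its groups were apart at 0 hpa and overlapped at 6, 24 and 48 hpa.

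In the 6-feeding controls at 0 hpa their level ran from 2.03 to 1258 CPM with a median of 23.7 CPM, against a median of 21.1 CPM and a highest level of 106176 CPM over the wound-stable transcripts. At least 100 CPM was reached by 21 members, beside 12.5% of the wound-stable transcripts, and 32 were under 10 CPM, beside 30.1%. Together the members held 0.92% ± 0.031 (SD, n = 3) of all counts in the 6-feeding controls at 0 hpa and 0.627% ± 0.041 (SD, n = 3) after fst RNAi. At 6 hpa the shares were 0.834% ± 0.048 and 0.534% ± 0.0052 (SD, n = 3 each). At the later times, where the rule used only the controls and only for the stability bound, the shares were 0.754% ± 0.03 in controls and 0.607% ± 0.112 after fst RNAi at 24 hpa (SD, n = 3 each), and 0.772% ± 0.07 and 0.562% ± 0.02 at 48 hpa (SD, n = 3 each). Only 1 member shares an assembly component number with another transcript, and none shares one with another member.

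**Figure D1:**
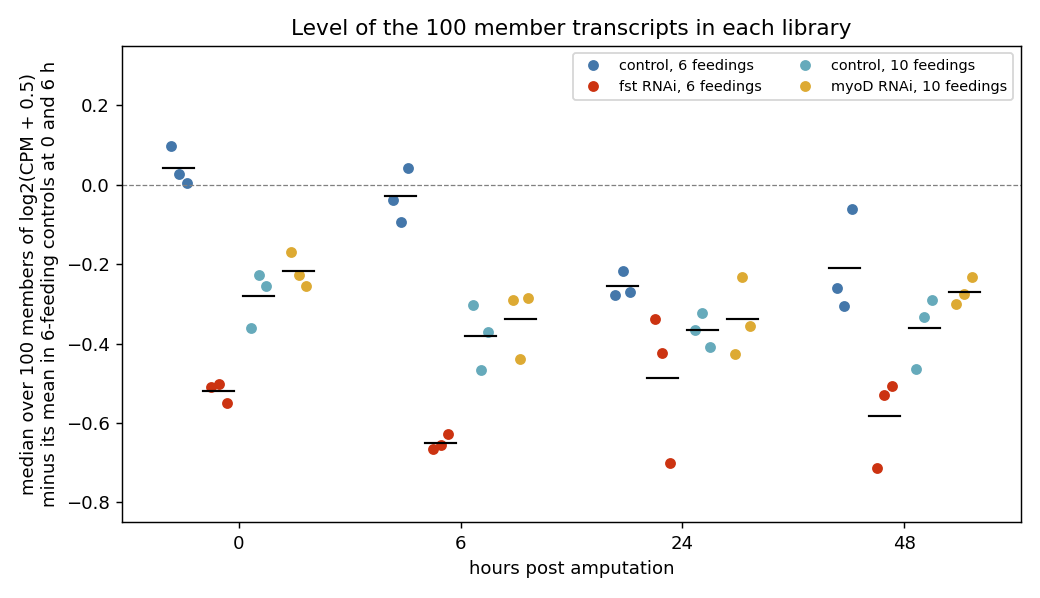
Each point is 1 library; the y axis is the median over the 100 members of log2(CPM + 0.5) minus its mean in the 6-feeding controls at 0 and 6 hpa, the x axis is hours post amputation, and bars are means of 3 libraries. The fst RNAi libraries lie between -0.67 and -0.50 at 0 and 6 hpa and between -0.71 and -0.34 later, and all 24 libraries of the 10-feeding experiment lie between -0.47 and -0.17.

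The level of the members as a set is seen in each library as the median over members of the log2 level, relative to the mean of the 6-feeding controls at 0 and 6 hpa. In those controls it was 0.10, 0.03 and 0.01 at 0 hpa and -0.04, -0.09 and 0.04 at 6 hpa. It was lower in the controls at 24 hpa, at -0.28, -0.22 and -0.27. At 48 hpa the controls stood at -0.26, -0.30 and -0.06, with replicate 3 above the other 2. The fst RNAi libraries at 24 hpa were at -0.34, -0.42 and -0.70, where replicate 3 stood apart, and those at 48 hpa were at -0.71, -0.53 and -0.51. At both late times all 3 fst RNAi libraries were below all 3 controls. The same median over the wound-stable transcripts was 0.04 to 0.06 in the controls and 0.04 to 0.09 after fst RNAi at 24 hpa. At 48 hpa it was 0.11 to 0.17 in the controls and -0.14, 0.09 and 0.11 after fst RNAi, so replicate 1, the library with the contamination remark, was lower over the wound-stable transcripts too. The gap between groups was smaller at 24 hpa than the gap between replicates 1 and 3 of fst RNAi at that time.

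The stability of the members is that of a mean over both control series. In the 6-feeding controls alone, 17 members were at least 0.6 lower on the log2 scale at 24 hpa than at 0 hpa, beside 75 of the 11175 wound-stable transcripts. At 48 hpa 14 were at least 0.6 lower, beside 157 of the 11175, and 1 was at least 0.6 higher. In the 10-feeding controls alone, a change of at least 0.6 in either direction was found for 2 members at 24 hpa and for 6 at 48 hpa, beside 157 and 483 of the 11175. The median log2 change from 0 to 24 hpa was -0.32 over members in the 6-feeding controls and -0.08 in the 10-feeding controls, beside 0.02 and 0.07 over the wound-stable transcripts. The 6-feeding controls at 0 hpa are also on the control side of the choice.

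The 2 control series, which both received unc-22 double-stranded RNA, differed in the level of the members. The log2 ratio of the 6-feeding to the 10-feeding controls had a median over members of 0.34 at 0 hpa and 0.36 at 6 hpa, where 84 of the 100 members were above 0 each time. At 24 and 48 hpa the medians were 0.09 and 0.18. For the wound-stable transcripts the medians lay between 0.04 and 0.08 at the 4 times. Against the 10-feeding controls, the fst RNAi libraries had member medians of -0.23 at 0 hpa, -0.29 at 6 hpa, -0.06 at 24 hpa and -0.22 at 48 hpa. The members' level in the 10-feeding controls at 0 and 6 hpa thus lay between the 6-feeding controls and the fst RNAi libraries. The rule used the 6-feeding controls at both early times, and feeding number and experiment cannot be told apart in this difference.

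The fst RNAi libraries at 24 hpa played no part in the choice, and the controls of that time entered only through the stability bound. That bound ties the controls of 24 and 48 hpa to those of 0 hpa, which are on the control side of the choice. The late comparisons are therefore not fully independent of the choice, and how far this moves them was not tested. Of the 100 members, 7 were lower after fst RNAi at 24 hpa and none was higher, at an edgeR adjusted p under 0.05 over 17815 transcripts. Over all transcripts tested 0.298% were lower and 0.544% higher, and over the wound-stable transcripts 0.215% and 0.224%. The 7 had log2 fold changes of -1.36 to -0.64. At an unadjusted p under 0.05, 32 members were lower and 2 higher, against 4.86% and 4.73% of all transcripts, and DESeq2 called 9 lower and 1 higher, against 0.544% and 0.797%. The median log2 fold change over members was -0.25, with 77 of 100 below 0, against -0.01 over all transcripts. All 3 fst RNAi libraries were below all controls for 29 members and above them for 4, beside 7.55% and 11.9% of all transcripts. The count of lower members was 2 without replicate 3 of fst RNAi, 4 without replicate 2 of fst RNAi, and 4 without replicate 2 of the controls. The shares of all transcripts that were lower in these fits were 0.132%, 0.127% and 0.126%. Without the 48 hpa library with the contamination remark, which enters the shared estimate of spread, 10 were lower and 1 was higher. Over all transcripts 0.919% were lower and 214 were higher in that fit. The authors' deposited table also lists 7 members as lower at 24 hpa, beside 0.14% of all transcripts with an adjusted p there.

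At 24 hpa dd_Smed_v4_4185_0_1 had the largest fall among the 7 called members, and its abundance was low. It was at 6.81, 4.08 and 5.13 CPM in the controls and 2.55, 4.08 and 5.13 CPM in the fst RNAi libraries at 0 hpa, and 7.19, 12.4 and 10.8 CPM in the controls and 4.19, 4.24 and 6.41 CPM in the fst RNAi libraries at 6 hpa. At 0 hpa the groups overlapped and at 6 hpa they were apart. At the late times it was at 7.46, 7.07 and 6.86 CPM in the controls and 3.78, 2.67 and 2.28 CPM in the fst RNAi libraries at 24 hpa, and 6.26, 7.02 and 7.53 CPM in the controls and 4.01, 6.41 and 7.21 CPM in the fst RNAi libraries at 48 hpa. Groups apart at 24 hpa overlapped at 48 hpa. Its log2 fold change was -1.36 (SE 0.26, edgeR adjusted p = 0.00791) at 24 hpa and -0.10 (SE 0.27, edgeR adjusted p = 0.866) at 48 hpa. The call at 24 hpa was lost without replicate 2 of fst RNAi, with an edgeR adjusted p of 0.0689, and without replicate 3, with 0.0717. The value at 48 hpa was 0.0432 without the library with the contamination remark.

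The next largest fall was that of dd_Smed_v4_9584_0_1, whose groups were apart at every time. It was at 17.9, 17 and 19.97 CPM in the controls and 8.72, 8.78 and 8.85 CPM in the fst RNAi libraries at 0 hpa, and 19.1, 20.5 and 23.9 CPM in the controls and 11.7, 11.6 and 11 CPM in the fst RNAi libraries at 6 hpa. It was at 26.3, 27.2 and 25 CPM in the controls and 12.7, 11.5 and 11.5 CPM in the fst RNAi libraries at 24 hpa, and 28.4, 26.7 and 24.5 CPM in the controls and 7.89, 9.51 and 9.75 CPM in the fst RNAi libraries at 48 hpa. All 3 fst RNAi libraries were below all 3 controls at each of the 4 times, and the 12 fst RNAi libraries lay between 7.89 and 12.7 CPM while the 12 controls lay between 17.0 and 28.4 CPM. For this transcript the log2 fold change was -1.17 (SE 0.10, edgeR adjusted p = 1.25e-07) at 24 hpa and -1.43 (SE 0.11, edgeR adjusted p = 3.79e-09) at 48 hpa, and these calls held under each of the 12 alternatives run at 24 hpa and the 11 run at 48 hpa. Its control level was higher at 24 and 48 hpa than at 0 hpa, in both control series.

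**Figure D2:**
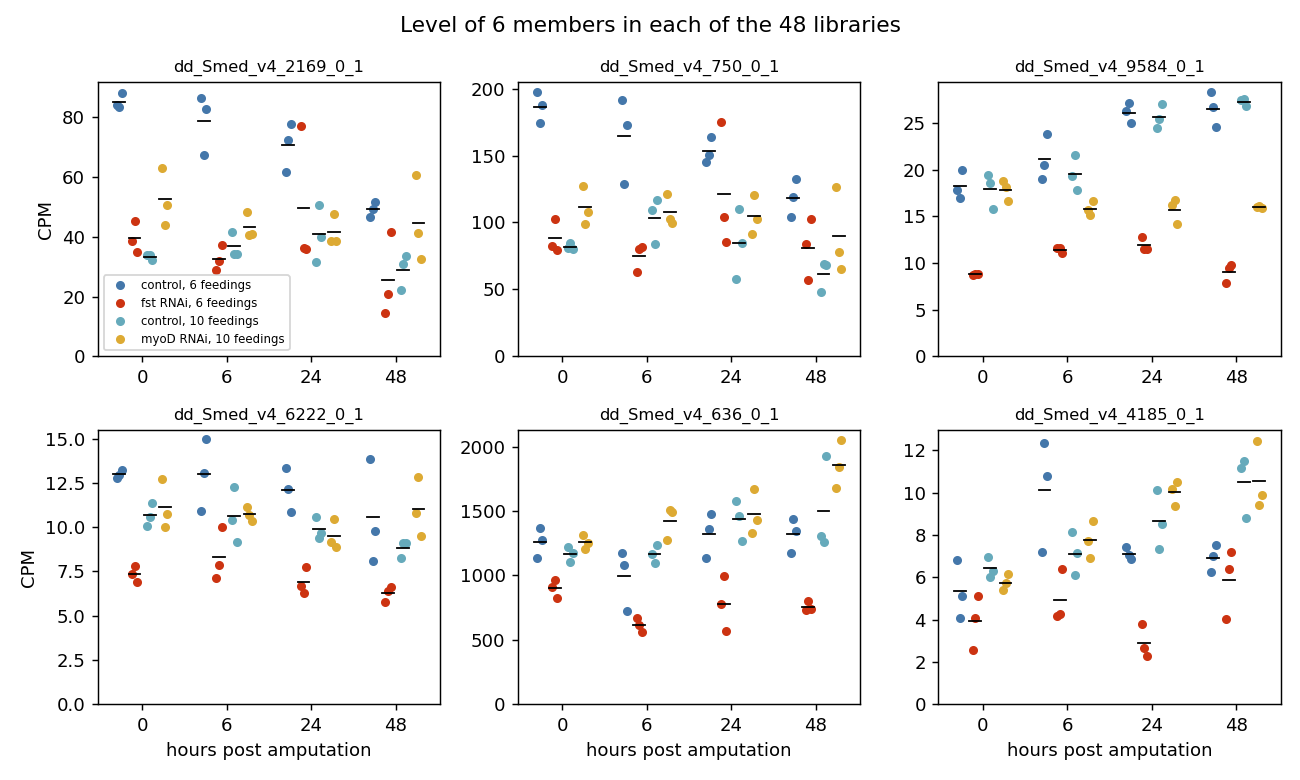
Level in CPM (y axes, linear, from 0) of 6 members against hours post amputation (x axes); each point is 1 of the 48 libraries and bars are means of 3. The fst RNAi libraries of dd_Smed_v4_9584_0_1 lie below all controls at each time, whereas for dd_Smed_v4_2169_0_1 and dd_Smed_v4_750_0_1 one fst RNAi library at 24 hpa lies at or above the controls.

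The fst comparison at 48 hpa had more calls throughout. Of the 100 members, 15 were lower and none was higher at an edgeR adjusted p under 0.05, beside 3.6% lower and 3.7% higher over all transcripts tested. Over the wound-stable transcripts the shares were 1.37% lower and 3.96% higher. The log2 fold changes of the 15 ran from -1.43 to -0.36. The unadjusted p was under 0.05 for 31 lower and 0 higher members, against 11.2% and 11.1% of all transcripts, and DESeq2 called 16 lower and 0 higher, against 3.86% and 5.37%. The median over members was -0.27 with 80 of 100 below 0, and over all transcripts it was 0.00. On the CPM scale, which has no further scaling between libraries, the wound-stable transcripts had a median of -0.10 and the members one of -0.39, so the members' median was read on the TMM scale of edgeR. The libraries of fst RNAi were all below all controls for 46 members and above for 1, beside 18.8% and 4.83% of all transcripts.

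The count of lower members at 48 hpa was 10 without the library with the contamination remark, beside 3.44% of all transcripts. It was 9, 8 and 7 without control replicates 1, 2 and 3, beside 1.89%, 1.6% and 2.67%. When only the 6 libraries of 48 hpa were fitted, 1 member was lower, beside 0.337% of all transcripts. Calls over all transcripts were thus also fewer in these fits than the 3.6% of the main fit. Without replicates 2 and 3 of fst RNAi, each left out alone, the shares of all transcripts were higher than that, at 4.22% and 4.43%. With any 1 of the 6 libraries of 48 hpa left out, 7 to 13 members were lower, against 15 in the main fit. The authors' deposited table lists 7 members as lower at this time, beside 0.608% of all transcripts with an adjusted p there.

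Among the 15 called at 48 hpa, the largest fall belonged to dd_Smed_v4_9584_0_1, given above, and the next to dd_Smed_v4_8373_0_1. The latter was at 10.4, 9.11 and 10.6 CPM in the controls and 6.86, 6.4 and 5.66 CPM in the fst RNAi libraries at 0 hpa, and 12.9, 12 and 14.3 CPM in the controls and 8.69, 8.26 and 7.37 CPM in the fst RNAi libraries at 6 hpa. At 24 and 48 hpa it was at 11.1, 12 and 10.9 CPM in the controls and 8.09, 8.86 and 5.23 CPM in the fst RNAi libraries at 24 hpa, and 7.49, 11.6 and 11 CPM in the controls and 3.26, 4.65 and 6.8 CPM in the fst RNAi libraries at 48 hpa. At all 4 times fst RNAi was below the controls in every library, with replicate 1 lowest at 48 hpa. Its log2 fold change was -0.89 (SE 0.22, edgeR adjusted p = 0.011) at 48 hpa and -0.64 (SE 0.19, edgeR adjusted p = 0.124) at 24 hpa. The 48 hpa call was lost without control replicate 2, with an edgeR adjusted p of 0.0848, and with only the 6 libraries of 48 hpa fitted, with 0.241. At 24 hpa the edgeR adjusted p was 0.0455 without the 48 hpa library with the contamination remark, and 11 of 12 alternatives gave no call.

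Of the 7 members lower at 24 hpa, 4 were also lower at 48 hpa, which is 57.1% of the former and 26.7% of the 15 of the latter. They are dd_Smed_v4_9584_0_1, dd_Smed_v4_636_0_1, dd_Smed_v4_6222_0_1 and dd_Smed_v4_2441_0_1, and the last 2 are named because they are in this overlap, after their values were seen. Over all transcripts tested 0.298% and 3.6% were lower at these times. Their overlap was not computed, so nothing is read from the members' overlap. Only dd_Smed_v4_9584_0_1 and dd_Smed_v4_6222_0_1 were lower at all 4 times, where the first pair of times belongs to the choice. The 2 comparisons share no library.

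The most abundant member was dd_Smed_v4_636_0_1. It was at 1134, 1366 and 1275 CPM in the controls and 909.8, 965 and 824 CPM in the fst RNAi libraries at 0 hpa, and 1177, 1081 and 727 CPM in the controls and 669.9, 614 and 564 CPM in the fst RNAi libraries at 6 hpa. It was at 1138, 1360.2 and 1475 CPM in the controls and 777, 997 and 566 CPM in the fst RNAi libraries at 24 hpa, and 1174, 1439.5 and 1344 CPM in the controls and 729, 803 and 741 CPM in the fst RNAi libraries at 48 hpa. The groups were apart at all 4 times, with control replicate 3 at 6 hpa the lowest of the 12 controls. Fitted log2 fold changes were -0.79 (SE 0.17, edgeR adjusted p = 0.0177) at 24 hpa and -0.67 (SE 0.17, edgeR adjusted p = 0.0153) at 48 hpa. The 24 hpa call was lost in 5 of 12 alternatives. Without replicates 1 and 3 of fst RNAi, each left out alone, the edgeR adjusted p was 0.0631 and 0.109, and without control replicates 2 and 3 it was 0.0874 and 0.0888. With only the 6 libraries of 24 hpa fitted it was 0.273. The 48 hpa call was lost in 3 of 11, with an edgeR adjusted p of 0.0552 without the library with the contamination remark, 0.0742 without control replicate 2 and 0.086 with only the 6 libraries of 48 hpa fitted.

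Next in abundance was dd_Smed_v4_790_0_1. It was at 809.8, 944 and 810.0 CPM in the controls and 474, 535 and 434 CPM in the fst RNAi libraries at 0 hpa, and 764, 596 and 623 CPM in the controls and 370.0, 359 and 394 CPM in the fst RNAi libraries at 6 hpa. At the later times it was at 524, 653 and 550.3 CPM in the controls and 457, 542 and 256 CPM in the fst RNAi libraries at 24 hpa, and 481, 566 and 711 CPM in the controls and 382, 388 and 387 CPM in the fst RNAi libraries at 48 hpa. The groups were apart at 0, 6 and 48 hpa and overlapped at 24 hpa, where replicate 3 of fst RNAi was lowest. Neither late comparison passed the test, with log2 fold changes of -0.49 (SE 0.19, edgeR adjusted p = 0.363) at 24 hpa and -0.47 (SE 0.19, edgeR adjusted p = 0.142) at 48 hpa. Its control level was lower at 24 hpa than at 0 hpa in the 6-feeding series.

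For dd_Smed_v4_6222_0_1 the early levels were 12.8, 13 and 13.2 CPM in the controls and 7.35, 7.82 and 6.91 CPM in the fst RNAi libraries at 0 hpa, and 10.9, 13 and 15 CPM in the controls and 7.16, 7.86 and 10.0 CPM in the fst RNAi libraries at 6 hpa. The late levels were 13.4, 12.1 and 10.9 CPM in the controls and 6.69, 6.3 and 7.74 CPM in the fst RNAi libraries at 24 hpa, and 13.8, 8.07 and 9.76 CPM in the controls and 5.76, 6.41 and 6.6 CPM in the fst RNAi libraries at 48 hpa. Every fst RNAi library was below the controls of its time, and the first control at 48 hpa was the highest of its group. Its fitted value was a log2 fold change of -0.85 (SE 0.16, edgeR adjusted p = 0.00607) at 24 hpa and -0.63 (SE 0.18, edgeR adjusted p = 0.0287) at 48 hpa. Without that control the 48 hpa value was -0.38 with an edgeR adjusted p of 0.28, and without replicate 2 of fst RNAi the adjusted p was 0.0599 at 24 hpa and 0.055 at 48 hpa. With only the 6 libraries of 48 hpa fitted it was 0.312.

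For dd_Smed_v4_2441_0_1 the late levels were 24.6, 23.4 and 21.3 CPM in the controls and 15, 15.5 and 14.9 CPM in the fst RNAi libraries at 24 hpa, and 18.5, 21.4 and 25.1 CPM in the controls and 8.9, 14.5 and 14 CPM in the fst RNAi libraries at 48 hpa. Both times had groups apart. The log2 fold change was -0.64 (SE 0.16, edgeR adjusted p = 0.0466) at 24 hpa and -0.67 (SE 0.17, edgeR adjusted p = 0.0149) at 48 hpa. Leaving out any 1 of the 6 libraries of 24 hpa ended the call at that time, with values of -0.70 to -0.60, and at 48 hpa the call ended without the library with the contamination remark, with an edgeR adjusted p of 0.0681, and without control replicates 2 and 3, with 0.0567 and 0.0777. The replicate block ended the call at 24 hpa, with an edgeR adjusted p of 0.0656, and fitting only the 6 libraries of 48 hpa ended it there, with 0.208.

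**Figure D3:**
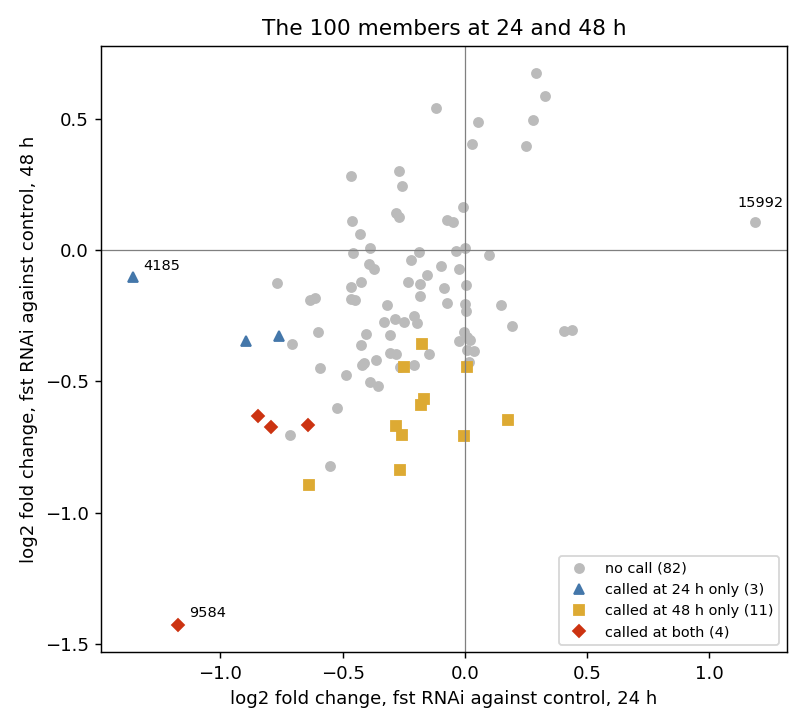
Fitted log2 fold change of fst RNAi against control at 24 hpa (x axis) and at 48 hpa (y axis) for each of the 100 members; colours and shapes give the calls at an edgeR adjusted p under 0.05. Calls fall on 4 members at both times, on 3 at 24 hpa only and on 11 at 48 hpa only, and 82 members have none; labels shorten the identifiers to their component number.

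The difference between the fst effects at 48 and 24 hpa was tested in the same fit. No member passed at an edgeR adjusted p under 0.05, beside 0.286% of all transcripts with a lower and 0.298% with a higher effect at 48 hpa. At an unadjusted p under 0.05, 7 members were lower and 2 higher, beside 5.93% and 6.28% of all transcripts. DESeq2 called 1 member lower and 0 higher, beside 0.539% and 0.814%. The 11 members called at 48 hpa only and the 3 called at 24 hpa only are thus not shown to differ between the times. This contrast holds the 24 hpa comparison, which crosses the division of the libraries described above. The division and a difference between the times cannot be told apart in it. On the CPM scale, 22 members had a log2 ratio of at most -0.3 at both late times, 13 at 24 hpa only, 36 at 48 hpa only and 29 at neither, while 7 were above 0 at both. Of the wound-stable transcripts 1.03% were at most -0.3 at both times, 1.78% at 24 hpa only, 15.9% at 48 hpa only and 81.3% at neither, and 21.5% were above 0 at both. On this scale the median of the wound-stable transcripts at 48 hpa was itself -0.10. A transcript at the other extreme, named after its values were seen, was dd_Smed_v4_15992_0_1. It was at 0.656, 1.3 and 1.55 CPM in the controls and 3.56, 2.72 and 2.12 CPM in the fst RNAi libraries at 24 hpa, and 2.09, 2.52 and 1.39 CPM in the controls and 1.38, 2.79 and 1.83 CPM in the fst RNAi libraries at 48 hpa. Its fst RNAi libraries were above all controls at 24 hpa and overlapped them at 48 hpa, with a log2 fold change at 24 hpa of 1.19 (SE 0.32, edgeR adjusted p = 0.0862), which did not pass the test in edgeR. Its edgeR adjusted p was 0.0405 without the 48 hpa library with the contamination remark, and DESeq2 gave 0.0448. At 24 hpa 10 of 12 alternatives gave no call.

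By abundance in the 6-feeding controls at 0 hpa, the 32 members under 10 CPM had median log2 fold changes of -0.18 at 24 hpa and -0.19 at 48 hpa. The 47 members from 10 to 100 CPM had -0.26 and -0.31, and the 21 members of at least 100 CPM had -0.25 and -0.31. Of the members under 10 CPM 1 was called lower at each late time, against 5 and 10 in the middle class and 1 and 4 in the highest. Over all transcripts tested, of any abundance, 0.298% and 3.6% were lower at 24 and 48 hpa. Shares of all transcripts by class were not computed, so nothing is read from the counts by class. The spread between replicates was wider for members than for wound-stable transcripts in the fst RNAi libraries that the rule did not use. The median coefficient of variation, on CPM with no further scaling between libraries, was 20.4% against 8.44% at 24 hpa and 20.1% against 17.9% at 48 hpa. In the 4 groups of myoD RNAi it was 10.1% to 14.0% against 6.06% to 8.81%. The fst RNAi group at 48 hpa holds the library with the contamination remark. Its median log2 level over the wound-stable transcripts, relative to the early controls, was -0.14, against 0.09 and 0.11 in replicates 2 and 3.

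**Figure D4:**
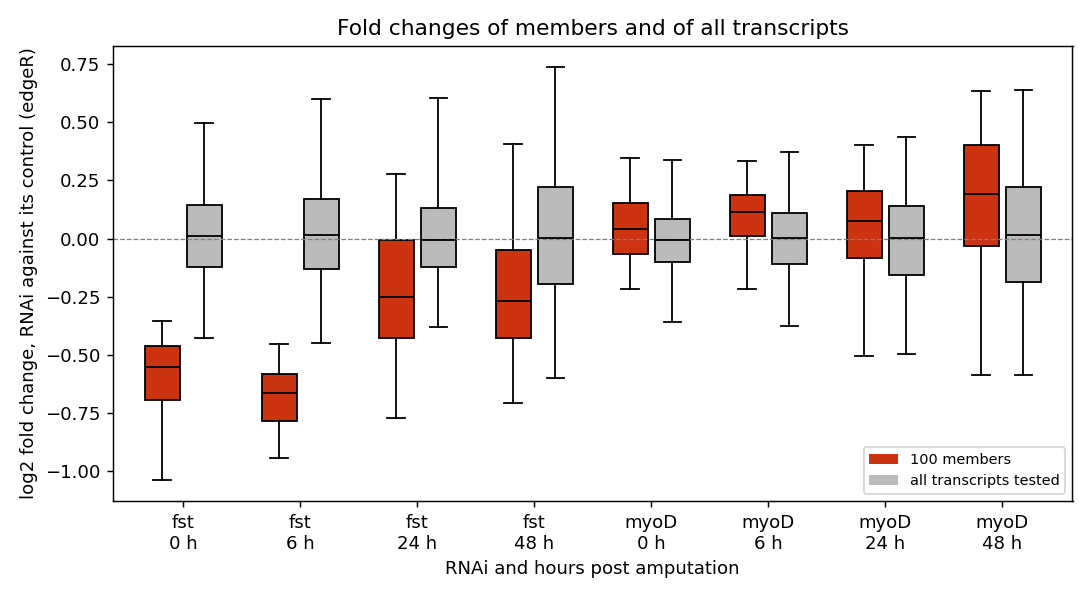
Fitted log2 fold changes (y axis) of the 100 members and of all transcripts tested, by RNAi and hours post amputation (x axis); boxes span the quartiles with the median as a line, and whiskers run from the 5th to the 95th percentile. The fst comparisons at 0 and 6 h chose the members; in the others the member medians are -0.25 and -0.27 for fst and 0.04, 0.11, 0.08 and 0.19 for myoD.

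The myoD RNAi libraries played no part in the choice, and their controls entered only through the stability bound. The median log2 fold change of myoD RNAi over the members was 0.04 at 0 hpa, 0.11 at 6 hpa, 0.08 at 24 hpa and 0.19 at 48 hpa, against 0.00, 0.00, 0.00 and 0.01 over all 17527 transcripts tested. In edgeR 1 member was lower at 0 hpa and none higher, beside 0.542% and 0.0456% of all transcripts. At 6 hpa 0 members were lower and 0 higher, beside 0.365% and 0.2%, while the unadjusted p was under 0.05 for 1 lower and 15 higher members, beside 5.31% and 5.38%. DESeq2 called 0 lower and 1 higher at that time, beside 0.502% and 0.388%. At 24 hpa 8 were lower and 1 higher, beside 3.37% and 2.48%. At 48 hpa 9 were lower and 18 higher, beside 12.9% and 12.7% of all transcripts and 7.55% and 15.5% of the wound-stable ones. All 3 myoD RNAi libraries were below all controls for 5, 5, 11 and 16 members at 0, 6, 24 and 48 hpa, beside 5.1%, 9.11%, 15.3% and 26.2%. They were above all controls for 11, 13, 4 and 21 members, beside 8.93%, 5.51%, 6.05% and 11.9%. The count of 18 higher at 48 hpa was 7 without control replicate 1, 11 without replicate 2 of myoD RNAi and 11 without its replicate 3. Over all transcripts the count higher was 2223 in the main fit and 1039, 1842 and 1399 in these fits.

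The member called at 0 hpa was dd_Smed_v4_7222_0_1. It had 8.00, 7.88 and 8.14 CPM in the 10-feeding controls and 5.44, 5.67 and 5.62 CPM in the myoD RNAi libraries at 0 hpa, and 6.87, 5.7 and 8.01 CPM in the 10-feeding controls and 7.66, 6.37 and 6.47 CPM in the myoD RNAi libraries at 6 hpa. It then had 5.59, 5.39 and 4.78 CPM in the 10-feeding controls and 8.46, 6.97 and 7.16 CPM in the myoD RNAi libraries at 24 hpa, and 8.08, 7.62 and 6.01 CPM in the 10-feeding controls and 6.64, 5.69 and 5.73 CPM in the myoD RNAi libraries at 48 hpa. It was below the controls at 0 hpa, above them at 24 hpa, and overlapped them at 6 and 48 hpa. The log2 fold change of myoD RNAi was -0.56 (SE 0.13, edgeR adjusted p = 0.0323) at 0 hpa and 0.56 (SE 0.14, edgeR adjusted p = 0.0137) at 24 hpa, the only member higher at that time. The 0 hpa call was lost when any 1 of the 6 libraries was left out, and the 24 hpa call without control replicate 3 or replicate 1 of myoD RNAi. Across the fst experiment it was at 9.23, 7.39 and 7.05 CPM in the controls and 4.51, 5.66 and 7.23 CPM in the fst RNAi libraries at 0 hpa, and 7.31, 7.78 and 9.29 CPM in the controls and 4.6, 5.33 and 5.67 CPM in the fst RNAi libraries at 6 hpa. At the late times it was at 6.21, 5.3 and 5.14 CPM in the controls and 9.39, 6.51 and 5.08 CPM in the fst RNAi libraries at 24 hpa, and 4.27, 5.66 and 10.3 CPM in the controls and 10.8, 8.06 and 6.6 CPM in the fst RNAi libraries at 48 hpa. There the groups overlapped at 0, 24 and 48 hpa.

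The largest fall after myoD RNAi at 24 hpa was that of dd_Smed_v4_9584_0_1. In the myoD experiment it was at 19.4, 18.5 and 15.8 CPM in the controls and 18.8, 18.1 and 16.7 CPM in the myoD RNAi libraries at 0 hpa, and 19.4, 21.5 and 17.8 CPM in the controls and 15.7, 15.2 and 16.6 CPM in the myoD RNAi libraries at 6 hpa. It was at 24.4, 25.5 and 27 CPM in the controls and 16.2, 16.7 and 14.2 CPM in the myoD RNAi libraries at 24 hpa, and 27.5, 27.6 and 26.8 CPM in the controls and 16, 16.2 and 15.9 CPM in the myoD RNAi libraries at 48 hpa. The groups overlapped at 0 hpa and were apart at the other 3 times. The 12 myoD RNAi libraries lay between 14.2 and 18.8 CPM, and the controls were higher at 24 and 48 hpa than at 0 hpa. The log2 fold change of myoD RNAi was -0.04 (SE 0.08, edgeR adjusted p = 0.976) at 0 hpa, -0.28 (SE 0.08, edgeR adjusted p = 0.0976) at 6 hpa, -0.67 (SE 0.08, edgeR adjusted p = 1.03e-06) at 24 hpa and -0.68 (SE 0.08, edgeR adjusted p = 6.93e-08) at 48 hpa. The 0 hpa value was 0.0218 without control replicate 1 of that time. It was the only member lower at 24 hpa after both treatments.

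The next largest fall at 24 hpa was that of dd_Smed_v4_715_0_1. In the myoD experiment it was at 48.4, 60.4 and 54.1 CPM in the controls and 55.7, 52.8 and 47.1 CPM in the myoD RNAi libraries at 0 hpa, and 72.1, 69.4 and 65.2 CPM in the controls and 72.2, 59.2 and 75.5 CPM in the myoD RNAi libraries at 6 hpa. It was at 40.5, 48.8 and 48.1 CPM in the controls and 25.4, 33.8 and 29.8 CPM in the myoD RNAi libraries at 24 hpa, and 55.2, 50.6 and 51.9 CPM in the controls and 29.8, 32.5 and 28.3 CPM in the myoD RNAi libraries at 48 hpa. The groups overlapped at the early times and were apart at the late ones. After myoD RNAi its log2 fold change was -0.58 (SE 0.09, edgeR adjusted p = 2.19e-04) at 24 hpa and -0.71 (SE 0.09, edgeR adjusted p = 1.21e-06) at 48 hpa. Under fst RNAi the same transcript was at 76.5, 68.2 and 61.9 CPM in the controls and 45.9, 42.3 and 42.4 CPM in the fst RNAi libraries at 0 hpa, and 74.3, 60.5 and 97.5 CPM in the controls and 44.2, 51.9 and 59 CPM in the fst RNAi libraries at 6 hpa. It was at 55.8, 54.3 and 54.8 CPM in the controls and 67.2, 51.7 and 54.5 CPM in the fst RNAi libraries at 24 hpa, and 77.9, 78.7 and 102 CPM in the controls and 79.4, 49.9 and 49.5 CPM in the fst RNAi libraries at 48 hpa. Here the order was the opposite in time, with the groups apart at 0 and 6 hpa, which chose the transcript, and overlapping at 24 and 48 hpa.

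At 48 hpa the largest fall after myoD RNAi was that of dd_Smed_v4_14906_0_1, one of the least abundant members. It was at 2.68, 2.16 and 3.28 CPM in the 10-feeding controls and 2.22, 2.25 and 3.75 CPM in the myoD RNAi libraries at 24 hpa, and 3.41, 4.25 and 3.83 CPM in the 10-feeding controls and 2.06, 1.74 and 2.31 CPM in the myoD RNAi libraries at 48 hpa. The groups overlapped at 24 hpa and were apart at 48 hpa, with a log2 fold change at 48 hpa of -0.82 (SE 0.21, edgeR adjusted p = 0.00405). In the fst experiment the levels were 3.88, 2.86 and 3.34 CPM in the controls and 1.67, 2.49 and 2.51 CPM in the fst RNAi libraries at 0 hpa, and 4.01, 3.19 and 5.00 CPM in the controls and 2.45, 2.24 and 2.44 CPM in the fst RNAi libraries at 6 hpa. They were 3.58, 3.48 and 2.2 CPM in the controls and 4.53, 3.74 and 4.63 CPM in the fst RNAi libraries at 24 hpa, and 3.98, 3.88 and 6.00 CPM in the controls and 2.38, 3.2 and 4.47 CPM in the fst RNAi libraries at 48 hpa. After fst RNAi it was below the controls at the early times, above them at 24 hpa and overlapped them at 48 hpa, and the log2 fold change at 24 hpa of 0.44 (SE 0.22, edgeR adjusted p = 0.568) did not pass the test.

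The largest rise after myoD RNAi at 48 hpa was that of dd_Smed_v4_2626_0_1. It was at 2.14, 2.64 and 1.98 CPM in the controls and 3.27, 3.79 and 5.28 CPM after myoD RNAi. The groups were apart, with a log2 fold change of 0.94 (SE 0.34, edgeR adjusted p = 0.0498) that lay close to the threshold and lost its call under 8 of 11 alternatives. Its levels in the fst experiment were 3.88, 1.9 and 2.91 CPM in the controls and 1.27, 1.47 and 1.2 CPM in the fst RNAi libraries at 0 hpa, and 2.28, 2.44 and 2.26 CPM in the controls and 1.18, 1.03 and 0.53 CPM in the fst RNAi libraries at 6 hpa. They were 2.39, 1.53 and 2.25 CPM in the controls and 1.3, 1.44 and 1.29 CPM in the fst RNAi libraries at 24 hpa, and 1.8, 1.78 and 1.95 CPM in the controls and 2.38, 0.93 and 1.22 CPM in the fst RNAi libraries at 48 hpa. The groups were apart at 0, 6 and 24 hpa and overlapped at 48 hpa, where replicate 1 of fst RNAi was highest.

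The next largest rise was that of dd_Smed_v4_2506_0_1. It was at 40.3, 31.7 and 33.9 CPM in the 10-feeding controls and 39.6, 42 and 36.7 CPM in the myoD RNAi libraries at 24 hpa, and 25.6, 29.1 and 45.3 CPM in the 10-feeding controls and 50.3, 55.3 and 53 CPM in the myoD RNAi libraries at 48 hpa. The groups were apart at 48 hpa, with a log2 fold change of 0.74 (SE 0.15, edgeR adjusted p = 0.0014). In the fst experiment it was at 33.7, 43.8 and 40.8 CPM in the controls and 31.9, 28.7 and 25.6 CPM in the fst RNAi libraries at 0 hpa, and 38.8, 52.1 and 37.3 CPM in the controls and 29.4, 27.8 and 24.2 CPM in the fst RNAi libraries at 6 hpa. It was at 35.8, 36 and 34.3 CPM in the controls and 21.7, 24 and 18.2 CPM in the fst RNAi libraries at 24 hpa, and 22.5, 32.1 and 28.7 CPM in the controls and 17.2, 22.9 and 20.7 CPM in the fst RNAi libraries at 48 hpa. Levels after fst RNAi were below the controls at 0, 6 and 24 hpa, and the groups overlapped at 48 hpa. It was 1 of the 7 members lower after fst RNAi at 24 hpa, with a log2 fold change of -0.76 (SE 0.15, edgeR adjusted p = 0.00773), and at 48 hpa the value was -0.33 (SE 0.16, edgeR adjusted p = 0.21). The 24 hpa call was lost without replicate 3 of fst RNAi, with an edgeR adjusted p of 0.0717. The call after myoD RNAi was lost with only the 6 libraries of 48 hpa fitted, with 0.106.

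Some members were lower after both treatments at 48 hpa. Of the 15 members lower after fst RNAi and the 9 lower after myoD RNAi, 4 were lower after both, which is 26.7% of the former and 44.4% of the latter. Over all transcripts tested 3.6% and 12.9% were lower in these comparisons. Their overlap was not computed, so nothing is read from the members' overlap. The 4 members are dd_Smed_v4_9584_0_1, dd_Smed_v4_8373_0_1, dd_Smed_v4_1013_0_1 and dd_Smed_v4_9946_0_1, and the last 2 are named for this overlap, after their values were seen. The log2 fold changes were -0.45 after fst RNAi and -0.58 after myoD RNAi for dd_Smed_v4_1013_0_1. For dd_Smed_v4_9946_0_1 they were -0.84 and -0.41. The fst call of dd_Smed_v4_1013_0_1, at an edgeR adjusted p of 0.0478, was lost under 9 of 11 alternatives, among them leaving out any of the 3 controls or replicate 1 or 3 of fst RNAi, with adjusted p-values up to 0.236. The myoD call of dd_Smed_v4_9946_0_1, at an edgeR adjusted p of 0.0418, was lost under 5 of 11, among them leaving out control replicate 1 or 2 or replicate 1 or 3 of myoD RNAi, with adjusted p-values up to 0.261. Its fst call was lost with only the 6 libraries of 48 hpa fitted, with 0.0558. For dd_Smed_v4_8373_0_1 the myoD value was -0.62 (SE 0.15, edgeR adjusted p = 0.00276). A further member, dd_Smed_v4_6222_0_1, was lower after fst RNAi and higher after myoD RNAi, with 8.28, 9.09 and 9.09 CPM in the 10-feeding controls and 10.8, 12.8 and 9.52 CPM after myoD RNAi at 48 hpa. Those groups were apart, and the log2 fold change was 0.41 (SE 0.12, edgeR adjusted p = 0.0111). That call was lost without control replicate 1, with an edgeR adjusted p of 0.0972, and without replicate 2 of myoD RNAi, with 0.0921. The 2 comparisons share no library and differ in the number of feedings.

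Whether the fst and myoD effects on a member differ was tested as an interaction in a fit of all 48 libraries, chosen after the data were seen. At an edgeR adjusted p under 0.05 the fst effect was below the myoD effect for 5 members at 24 hpa, beside 0.252% of the 18230 transcripts tested, and above it for 0, beside 0.258%. At 48 hpa it was below for 5 members, beside 0.165%, and above for 0, beside 0.357%. DESeq2 called 7 below and 1 above at 24 hpa, beside 0.609% and 0.368%, and 8 below and 0 above at 48 hpa, beside 0.368% and 0.762%. The median difference over members was -0.38 at 24 hpa and -0.41 at 48 hpa, against 0.02 and 0.01 over all transcripts. Of the members named so far, dd_Smed_v4_9584_0_1, dd_Smed_v4_6222_0_1 and dd_Smed_v4_2506_0_1 passed at both times. Their 24 hpa calls were lost under 12, 8 and 6 of 17 alternatives, with edgeR adjusted p-values up to 0.162, 0.136 and 0.102. Their 48 hpa calls were lost under 1, 3 and 5 of 17, with edgeR adjusted p-values up to 0.0931, 0.346 and 0.455. The 24 hpa contrast crosses the division of the libraries described above, and the 2 experiments differ in feedings, so treatment, feedings and experiment cannot be told apart.

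How far members varied together between replicates was described by a Pearson correlation over pairs of transcripts. It was taken on log2 CPM levels, with no further scaling between libraries, from which the mean of each group of 3 libraries had been subtracted. Differences between times and treatments therefore do not enter it. Over the 6 fst RNAi libraries of 24 and 48 hpa, which the rule did not use, the median was 0.27 over the 4950 pairs of members and 0.14 over pairs of wound-stable transcripts. The share of pairs above 0.5 there was 36.5% for members and 35.3% for wound-stable transcripts. Over the 24 libraries of the 10-feeding experiment, whose controls entered the stability bound, the medians were 0.14 and 0.09 and the shares above 0.5 were 14.1% and 8.29%. Over the 24 libraries of the 6-feeding experiment, which hold those that chose the members, the medians were 0.15 and 0.06 and the shares 17.2% and 15.1%. What the libraries of a group share, such as time and treatment, was removed with the group mean. A shift of a whole library against its group was not removed. The 6 fst RNAi libraries of 24 and 48 hpa hold the one with the contamination remark. These values are a description of the libraries, with no test.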

How the data were processed

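Poly(A) RNA of planarian wound faces was sequenced in 48 libraries. Per the submitters' processing notes, cutadapt 1.8, Bowtie 1.1.1, CASAVA, SAMtools and DESeq were used. The reference and any use of strand in counting are not given in the sources used here. From the authors comes a deposited table of raw read counts for each transcript, with whole numbers throughout. In the authors' deposited comparison tables the group means are a normalised signal, the fold changes are given as a ratio and as log2, and each transcript has a p-value, raw and adjusted. Of these tables, the 4 of fst RNAi against control were used for counts of listed members, and their group means lay within 0.564% of those of the matching columns of the count table.

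Counts were analysed with edgeR 4.0.16 in R 4.3.3 (filterByExpr, TMM, robust quasi-likelihood F-tests, 1 coefficient per group). The 24 libraries of each experiment were fitted apart, with Benjamini-Hochberg adjustment over 17815 transcripts in the 6-feeding and 17527 in the 10-feeding experiment and a threshold of 0.05. All 100 members passed the filter on low counts. The biological coefficient of variation was 13.0% and 8.34%. Standard errors were derived from the log2 fold change and its F statistic. The difference between the fst and myoD effects was tested in a fit of all 48 libraries over 18230 transcripts, chosen after the data were seen. DESeq2 1.42.0 was an alternative, beside other size factors, no filter on low counts, the replicate number as a block, only the groups compared, and each library left out.

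The members, lists and tests were chosen with earlier results of these data known. Named transcripts are the 2 lowest by the early average, the last inside and first outside the limit, the 2 most abundant, and per comparison up to 2 falls and 2 rises among called members. In simulated counts for the 24 hpa comparison of fst RNAi, over 17609 transcripts, 94% of falls to 0.5 and 32% of falls to 0.7 of the control level were recovered. For that of myoD RNAi, over 17348 transcripts, the shares were 98% and 76%. The simulation gave all transcripts of an experiment the same spread. Members scattered more than that of wound-stable transcripts after fst RNAi at 24 hpa (median coefficient of variation 20.4% against 8.44%), so recovery for members was not measured. No 2 libraries of a group were alike within sampling noise (48 pairs, chi-square per degree of freedom at least 3.83).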

Additional observations from a re-analysis of the deposited data

Results flagged for a closer look

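The fst effect and the myoD effect on a member were compared directly at 24 and 48 hpa by an interaction contrast in a fit of all 48 libraries, chosen after the data were seen. The 2 experiments have different controls and numbers of feedings, and the treatment, the number of feedings and the experiment cannot be told apart in this difference. At 24 hpa the fst effect was below the myoD effect for 5 members and above it for 0 at an edgeR adjusted p under 0.05, beside 0.252% and 0.258% of the 18230 transcripts tested. At an unadjusted p under 0.05 the counts were 28 and 6, beside 5.5% and 6.14% of all transcripts.

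The log2 difference at 24 hpa was -1.61 for dd_Smed_v4_4185_0_1 (SE 0.29, edgeR adjusted p = 0.00165). It was -0.96 for dd_Smed_v4_2506_0_1, -0.83 for dd_Smed_v4_6222_0_1, -0.65 for dd_Smed_v4_8127_0_1 and -0.50 for dd_Smed_v4_9584_0_1. Of these 5, dd_Smed_v4_4185_0_1 kept its call under all 17 alternatives run, and dd_Smed_v4_9584_0_1, dd_Smed_v4_6222_0_1, dd_Smed_v4_2506_0_1 and dd_Smed_v4_8127_0_1 lost it under 12, 8, 6 and 4 of 17. Apart from the 3 other settings that ended the call of dd_Smed_v4_9584_0_1 (no filter on low counts, the replicate block and only the groups compared), each loss came from leaving out 1 library of 24 hpa. Leaving out control replicate 2 of either experiment ended the calls of these 4, and leaving out replicate 3 of fst RNAi ended those of dd_Smed_v4_9584_0_1 and dd_Smed_v4_2506_0_1, with edgeR adjusted p-values of 0.162 and 0.102.

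At 48 hpa the fst effect was again below the myoD effect for 5 members and above it for 0, beside 0.165% and 0.357% of all transcripts, with 42 and 2 members at an unadjusted p under 0.05, beside 5.04% and 7.71%. The log2 difference was -1.53 for dd_Smed_v4_2169_0_1 (SE 0.37, edgeR adjusted p = 0.0487), and -1.06 for both dd_Smed_v4_2506_0_1 and dd_Smed_v4_636_0_1. It was -1.04 for dd_Smed_v4_6222_0_1 and -0.74 for dd_Smed_v4_9584_0_1. The call of dd_Smed_v4_2169_0_1 was lost under 12 of 17 alternatives, those of dd_Smed_v4_2506_0_1 and dd_Smed_v4_636_0_1 under 5 each, that of dd_Smed_v4_6222_0_1 under 3 and that of dd_Smed_v4_9584_0_1 under 1. For all 5, fitting only the groups compared ended the call. For dd_Smed_v4_6222_0_1 the edgeR adjusted p was 0.105 without control replicate 1 of the fst experiment and 0.0518 without replicate 2 of myoD RNAi. For dd_Smed_v4_636_0_1 it was 0.0585 without control replicate 2 of the fst experiment, 0.0631 without replicate 3 of myoD RNAi, and 0.0787 and 0.0687 without control replicates 1 and 2 of the myoD experiment. For dd_Smed_v4_2169_0_1 and dd_Smed_v4_2506_0_1 it was lost without the fst RNAi library of 48 hpa that carries the contamination remark, with edgeR adjusted p-values of 0.145 and 0.0625.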

How the results depend on the processing

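Of the 49 values of single named members that were recomputed, 2 reversed, neither of them called: the fst value of dd_Smed_v4_4185_0_1 at 48 hpa was 0.0432 without the library with the contamination remark and otherwise down to -0.238 with 1 library left out, and the myoD value of dd_Smed_v4_9584_0_1 at 0 hpa was 0.0218 without control replicate 1 and otherwise down to -0.0948. Of 282 recomputed counts, 218 stayed within 1.5 times the reported one. DESeq2 called 38 and 63 members lower at 0 and 6 hpa after fst RNAi, beside 0.64% and 1.47% of all transcripts, 1 higher after fst RNAi at 24 hpa, 1 in the difference between times, 1 higher after myoD RNAi at 6 hpa, and 1 higher and 8 lower in the fst minus myoD effect at 24 and 48 hpa. With only the groups compared, 70 members were lower after fst RNAi at 0 hpa, a comparison that chose them, beside 3.54% of all transcripts. At 24 hpa 1 was higher after it, beside 198 of all transcripts, and at 48 hpa 1 was lower, beside 0.337%. After myoD RNAi 3 were higher at 0 hpa and 3 at 6 hpa, beside 36 and 39 of all transcripts. In the fst minus myoD effect 2 were higher at 24 hpa and 0 lower at 48 hpa, beside 47 and 0 of all transcripts. With no filter, and with the replicate block, 1 member was higher after myoD RNAi at 6 hpa, beside 38 and 34 of all transcripts.

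With 1 library left out, members lower after fst RNAi numbered 1 to 7, 11 to 28, 2 to 10 and 7 to 13 at 0, 6, 24 and 48 hpa. The shares of all transcripts lower were 0.011% to 0.0712%, 0.143% to 0.446%, 0.126% to 0.919% and 1.6% to 4.43%. Members higher numbered 0 to 1 at 24 and 48 hpa, beside 52 to 214 and 377 to 1101 of all transcripts. In the difference between times 0 to 1 passed, beside 0.137% to 0.6% of all transcripts lower and 19 to 127 transcripts higher. After myoD RNAi 0 were lower at 0 hpa, beside 0.247% to 0.472% of all transcripts. Members higher after it numbered 0 to 1 at 6 hpa, 0 to 2 at 24 hpa and 7 to 25 at 48 hpa. Over all transcripts 10 to 88, 135 to 549 and 1039 to 2017 were higher at these times. In the fst minus myoD effect 1 to 6 were lower and 0 to 1 higher at 24 hpa, and 2 to 9 were lower at 48 hpa. The shares of all transcripts lower were 0.14% to 0.28% and 0.0376% to 0.516%, and 27 to 66 were higher at 24 hpa. The cause of these changes was not tested.

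Whether same replicate numbers pair the samples could not be settled, since groups of 3 libraries cannot exclude it. Over 24 pairs the correlation of deviations ran from -0.35 to 0.37 with a median of 0.01. It was above 0.1 in 9 pairs, and in 0 of 8 comparisons were all pairs above 0.1. The replicate block gave 12 members lower after fst RNAi at 48 hpa, beside 3.24% of all transcripts. Other settings of the rule gave 316 to 526 transcripts in place of 445; the fewest came with a stability limit of 0.4, which kept 57 of the 100. Shallow libraries at 48 hpa limit the precision of members of low abundance. In the simulated counts of fst RNAi at 24 hpa, with the same spread for all transcripts, 32% of falls to 0.7 of the control level were recovered.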
